A study of Saccharomyces cerevisiae with 4 samples.

Results

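The cytosolic chaperonin CCT, also called TRiC, is built from 8 related proteins in budding yeast, and the messenger RNAs (mRNAs) of all 8 were lower in a mutant of nuclear export than in the wild type, by unequal amounts. The members were taken by systematic name: TCP1 (YDR212W), CCT2 (YIL142W), CCT3 (YJL014W), CCT4 (YDL143W), CCT5 (YJR064W), CCT6 (YDR188W), CCT7 (YJL111W) and CCT8 (YJL008C), which are 8 of the 7126 features in the gene tables. Polyadenylated RNA of Saccharomyces cerevisiae was read as single reads of 50 bp in 2 libraries of the double mutant xpo1-1 mex67-5 and 2 libraries of a wild-type strain. Both strains grew overnight at 25 °C and stood at 37 °C for 1 h before harvest, so the wild type is a heat-shifted control and not an unstressed one. Xpo1 (also Crm1) carries proteins and RNA out of the nucleus, Mex67 carries mRNA, and both alleles are known as temperature-sensitive. The labels give no further genotype, mating type or marker of either strain, nor whether the libraries of a strain are separate cultures. P-values therefore rest on a spread that may be technical.

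CCT is a pair of stacked rings in which each of the 8 subunits holds a fixed place, and all subunits are essential in yeast. It uses ATP to close a chamber over unfolded proteins. Actin and tubulin are its best known clients, followed by proteins with WD40 repeats such as Cdc20. Prefoldin hands nascent chains to it, and phosducin-like proteins act with it as cofactors. Since 1 copy of each subunit goes into a ring, the relative amounts of the 8 mRNAs are of interest beside their changes.

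The mutant libraries held 62205252 and 50843634 reads assigned to genes, against 49865570 and 49321384 in the wild type. Of the 2 mutated genes, CRM1 (YGR218W) stood at 187 and 190.0 reads per 1000000 scaled reads (CPM) in the mutant, against 217 and 220.4 in the wild type. MEX67 (YPL169C) stood at 1903 and 1947 CPM in the mutant, against 152 and 156 in the wild type. The mRNA level of a point-mutated allele does not check the genotype. Values are shares of a library, so a fall common to all mRNA of a cell would not be seen.

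The members' genes lie on chromosome IV (TCP1, CCT4 and CCT6), chromosome IX (CCT2) and chromosome X (CCT3, CCT5, CCT7 and CCT8) of build R64, each as 1 uninterrupted coding stretch of 1584 to 1707 bases. No member has a record among the 358 introns counted. The proteins, translated from that genome, had 527 to 568 residues and shared 27.2% to 37.0% of aligned residues over the 28 pairs, with a median of 29.9%. CCT4 and CCT5 were the most similar pair, and CCT2 and CCT8 the least. No stretch of 50 bases in any of the 8 coding sequences occurs elsewhere in the genome, and the longest run shared by a pair was 19 bases. A read that matches a subunit exactly over its length therefore has 1 place in the genome.

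In the 300 bases from 250 before to 50 after the start codon (RefSeq sequence of build R64), all 8 genes held GTGGCAA or GTGGCGA on 1 strand or the other, which 6.05% of 6001 protein-coding promoters of that length did. This heptamer was picked after the 8 promoters had been read, so its count is a description and no test. GTGGCAA is the inner part of the proteasome-associated element GGTGGCAAA, the binding site of the transcription factor Rpn4. GTGGCGA, the only form found in CCT2, CCT3 and CCT7, is not part of that element. The matches upstream of the start codon are shown first, in capitals with 12 bases on each side, because they are the feature that the members share. Each is written 5′ to 3′ on the strand where it reads GTGGC, which is opposite to the gene in CCT3 and CCT4, and CCT4 has a pair of them; CCT8 has a further match within its coding sequence, not shown.
TCP1, chrIV:887071-887101, plus strand: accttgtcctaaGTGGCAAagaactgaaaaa
CCT2, chrIX:83187-83217, plus strand: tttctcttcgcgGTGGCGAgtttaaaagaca
CCT3, chrX:407440-407470, minus strand: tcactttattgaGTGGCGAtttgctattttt
CCT4, chrIV:199827-199857, minus strand: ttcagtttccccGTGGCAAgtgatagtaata
CCT4, chrIV:199858-199888, minus strand: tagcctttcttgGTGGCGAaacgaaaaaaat
CCT5, chrX:555819-555849, plus strand: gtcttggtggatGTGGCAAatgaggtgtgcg
CCT6, chrIV:836235-836265, plus strand: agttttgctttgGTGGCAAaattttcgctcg
CCT7, chrX:207709-207739, plus strand: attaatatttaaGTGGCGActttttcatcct
CCT8, chrX:421751-421781, minus strand: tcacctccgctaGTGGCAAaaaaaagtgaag

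Counted from the start codon, with -1 for the base before it, these matches began between -174 (CCT6) and -83 (CCT5). The full nonamer GGTGGCAAA stood only in CCT6 among the 8, and in 1.2% of all promoters. Among the other lists described here, the heptamer stood in 2 of 6 prefoldin promoters (YKE2 and GIM5) and in 1 of 12 promoters of CCT client genes (TUB1). It stood in 0 of 7 promoters of ribosome-associated chaperones and in 0 of 15 of the cytosolic heat shock protein system. It was also not in the promoters of PLP2, HSP60, HSP10 and both mutated genes. Of all promoters, 6.05% held it. Since the heptamer was picked from the promoters of the 8 members, the other lists are no contrast to them. RPN4, singled out because of this element, stood at 6239 and 6177 CPM in the mutant, against 140.8 and 149 in the wild type. What bound these promoters was not measured, and a link between RPN4 and the change of the members was not tested.

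Other elements linked to heat, stress or growth occurred in at most 2 of the 8 promoters each. The heat shock element core, searched as GAANNTTC or TTCNNGAA on both strands, occurred in CCT7 alone (22.6% of all promoters). The stress response element AGGGG occurred in 0 of the 8 (21.6% of all). The PAC element GATGAG, common before ribosome assembly genes, occurred in CCT2, where it spans the start codon, and in CCT5 (20.4% of all). The RRPE core AAAATTTT occurred in CCT5 and in CCT6, where it overlaps the nonamer (9.03% of all). The promoters of the subunit with the largest and of that with the smallest fall below are given whole, with every match in capitals.
CCT4, chrIV:199746-200045, plus strand: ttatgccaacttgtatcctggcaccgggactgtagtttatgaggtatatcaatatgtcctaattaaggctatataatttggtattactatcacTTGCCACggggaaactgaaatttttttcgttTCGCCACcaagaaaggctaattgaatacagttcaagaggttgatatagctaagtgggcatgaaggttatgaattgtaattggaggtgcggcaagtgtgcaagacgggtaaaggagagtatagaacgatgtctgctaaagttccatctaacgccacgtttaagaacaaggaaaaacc
CCT6, chrIV:836171-836470, plus strand: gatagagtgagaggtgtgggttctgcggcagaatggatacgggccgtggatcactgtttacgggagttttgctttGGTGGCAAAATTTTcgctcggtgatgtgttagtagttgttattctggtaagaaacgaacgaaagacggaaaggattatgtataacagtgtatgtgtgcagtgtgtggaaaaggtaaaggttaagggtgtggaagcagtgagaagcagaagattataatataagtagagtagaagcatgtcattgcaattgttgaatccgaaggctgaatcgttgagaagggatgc

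The first comparison asked how the 8 mRNAs of the mutant differed from those of the wild type. All 8 fell, to between 23.1% (CCT4) and 61.8% (CCT6) of the wild type. Summed over the 8, the level was 1203 ± 10.6 CPM in the mutant and 2741 ± 22.5 CPM in the wild type (SD, n = 2 each), 2.28-fold lower. The 8 subunits took 0.121% and 0.121% of gene reads in the mutant libraries, against 0.274% and 0.272% in the wild type. Across all 6563 genes tested, 46.3% were called lower and 46.8% higher (edgeR quasi-likelihood test, Benjamini-Hochberg adjusted p under 0.05), so 8 of 8 lower stands beside a background of nearly even falls and rises. The median log2 change was -1.202 over the 8 subunits and 0.01 over all genes tested, and 21.8% of genes tested had a lower change than that median.

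The 4 subunits that fell most are described first. CCT4, the delta subunit, which binds actin in the mammalian complex, had 5644 and 4466 reads in the mutant, against 19234 and 18839 in the wild type. That is 89.7 and 88.2 CPM in the mutant, against 388 and 382 CPM in the wild type, a log2 change of -2.11 (SE 0.04, adjusted p = 3.9e-19 by edgeR). The mutant libraries lay within 2 CPM of each other and far under both wild-type libraries. TCP1, the alpha subunit and founding member of the family, stood at 88.2 and 88.5 CPM in the mutant, against 303 and 302 CPM in the wild type (log2 -1.77, SE 0.03, edgeR adjusted p = 3.2e-18). CCT2, the beta subunit, stood at 98.6 and 103 CPM in the mutant, against 304 and 294 CPM in the wild type (log2 -1.57, SE 0.04, edgeR adjusted p = 3.9e-17). CCT3, the gamma subunit, stood at 122 and 124 CPM in the mutant, against 331 and 331 CPM in the wild type (log2 -1.43, SE 0.03, edgeR adjusted p = 5.9e-17). In each of these the mutant level was under 40% of the wild-type level.

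In the other 4 the fall was 1.62-fold to 1.97-fold. CCT7, the eta subunit, stood at 179 and 177 CPM in the mutant, against 354 and 347 CPM in the wild type (log2 -0.98, SE 0.03, edgeR adjusted p = 1.0e-14). CCT8, the theta subunit, stood at 127 and 128 CPM in the mutant, against 247 and 242 CPM in the wild type (log2 -0.94, SE 0.03, edgeR adjusted p = 2.3e-14). The changes of this pair differed by 0.04 on the log2 scale, about the SE of either change alone. No SE of the difference itself was computed. CCT5, the epsilon subunit, stood at 223 and 224 CPM in the mutant, against 389 and 387 CPM in the wild type (log2 -0.79, SE 0.03, edgeR adjusted p = 1.8e-13). CCT6, the zeta subunit, stood at 267 and 277 CPM in the mutant, against 442 and 439 CPM in the wild type (log2 -0.69, SE 0.04, edgeR adjusted p = 2.9e-12). For all 8 the libraries of the groups did not overlap and the mutant was lower, as it was in 48.0% of all genes tested.

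**Figure D1:**
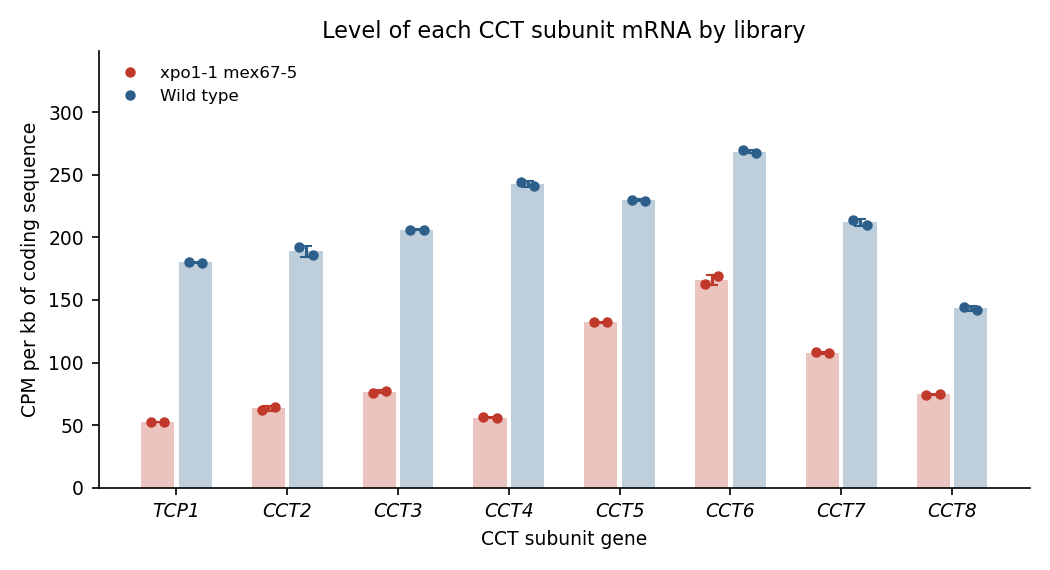
Level of each subunit mRNA in CPM per kb of coding sequence, with the mutant (red) left of the wild type (blue); bars are means, error bars the SD and points the 2 libraries. The wild-type bars lie between 143 and 268, while the mutant bars lie between 52.6 (TCP1) and 166 (CCT6).

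Per length, the levels of the 8 mRNAs lay further apart in the mutant than in the wild type. To compare subunits, CPM were divided by coding length. In the mutant, CCT6 had 166 ± 4.22 CPM per kb and TCP1 52.6 ± 0.128 (SD, n = 2 each), a ratio of highest to lowest of 3.16. In the wild type, CCT6 had 268 ± 1.19 CPM per kb and CCT8 143 ± 1.78, a ratio of 1.87. The coefficient of variation over the 8 mean levels was 44.5% in the mutant and 18.7% in the wild type. The members stood between the 49.9th and the 84.9th percentile of per-length levels in the mutant and between the 78.0th and 88.8th in the wild type, over 5847 tested genes with a coding length.

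The order of the levels also differed. From high to low, the mutant had CCT6, CCT5, CCT7, CCT3, CCT8, CCT2, CCT4 and TCP1, and the wild type CCT6, CCT4, CCT5, CCT7, CCT3, CCT2, TCP1 and CCT8. CCT4 took rank 7 in the mutant and rank 2 in the wild type, with 56.1 ± 0.682 CPM per kb in the mutant and 243 ± 2.52 in the wild type (SD, n = 2 each). CCT8 took rank 5 in the mutant and rank 8 in the wild type, with 74.7 ± 0.281 CPM per kb in the mutant and 143 ± 1.78 in the wild type. The library ranges of neighbours in either order did not overlap, but the closest neighbours were near: CCT3 was 1.03 times CCT8 in the mutant, and CCT7 was 1.03 times CCT3 in the wild type. Coding length stands in for the length of the mRNA, whose ends outside the coding sequence were not used here. The GC content of the coding sequence was 48% in CCT6 and between 39% (CCT7) and 43.6% (CCT2) in the others. Its part in the levels and shares was not tested.

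The second comparison asked whether the subunits changed by different amounts. Each library was scaled to the geometric mean of its 8 subunit counts in place of its size, and the same edgeR test was run on all genes. The first 4 subunits fell further than the mean of the 8: CCT4 (log2 -0.83 relative to the mean, SE 0.04), TCP1 (-0.49, SE 0.03), CCT2 (-0.29, SE 0.04) and CCT3 (-0.14, SE 0.03). The other 4 fell less: CCT6 (0.59, SE 0.04), CCT5 (0.49, SE 0.03), CCT8 (0.35, SE 0.03) and CCT7 (0.31, SE 0.03). All 8 passed at an adjusted p of at most 0.00082 (edgeR, Benjamini-Hochberg over all genes), 4 above and 4 below, where 77.4% of all genes tested were called above that mean and 18.1% below it. Each subunit is 1 of the 8 in its own mean, which pulls these values towards 0, and some must lie on each side of a mean.

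**Figure D2:**
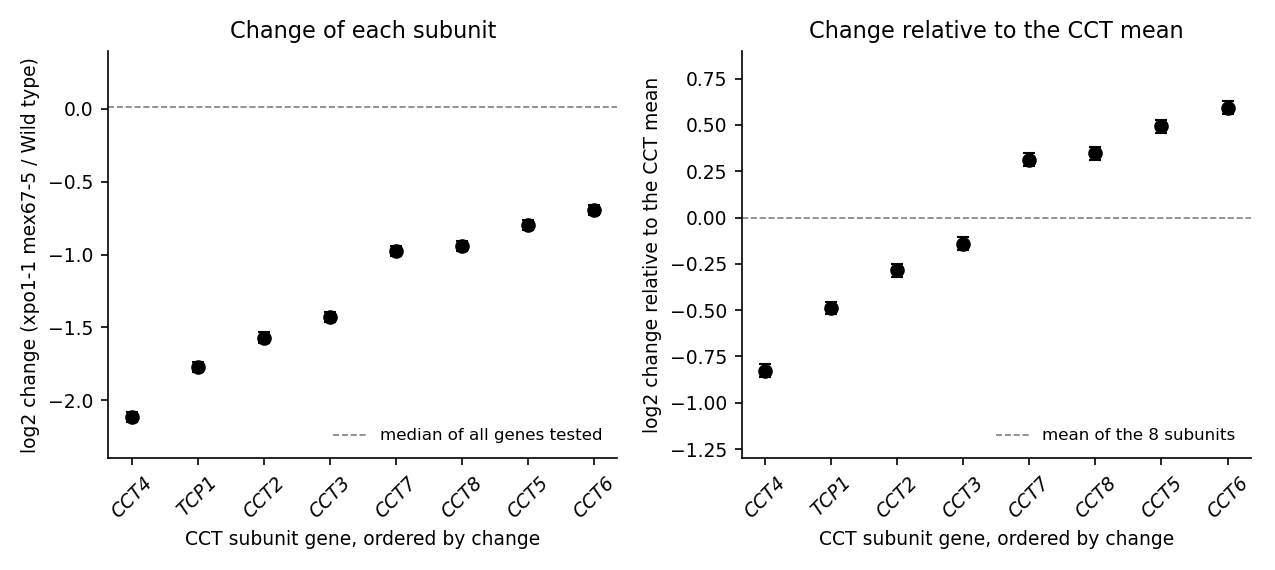
Left, log2 change of each subunit in the mutant over the wild type with its SE, and the median of all genes tested as a dashed line; right, the change relative to the mean of the 8. Points run from -2.11 (CCT4) to -0.69 (CCT6) on the left and from -0.83 to 0.59 on the right, with SEs of 0.03 to 0.04.

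Ratios of reads between subunits need no scaling. The ratio of CCT4 to CCT6 was -1.58 and -1.65 on the log2 scale in the mutant libraries, against -0.19 and -0.20 in the wild type. This was the largest shift among the 28 pairs, 2.68-fold. The smallest was that of CCT7 to CCT8, at 0.50 and 0.47 in the mutant, against 0.52 and 0.52 in the wild type. TCP1 and CCT4, at -0.03 and 0.00 in the mutant, against -0.36 and -0.34 in the wild type, had near-equal numbers of reads in the mutant. No test was run on single ratios. An exact permutation test of 2 against 2 libraries could not reach 0.05, since its smallest p is 2 of 6 arrangements.

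As a share of the summed per-length level, where equal amounts would give 12.5% each, CCT6 held 22.8% ± 0.375 in the mutant and 16.1% ± 0.0619 in the wild type (SD, n = 2 each). CCT5 held 18.1% ± 0.117 in the mutant and 13.7% ± 0.065 in the wild type. CCT4 went the other way, with 7.68% ± 0.162 in the mutant and 14.5% ± 0.0307 in the wild type. TCP1 held 7.21% ± 0.0469 in the mutant and 10.8% ± 0.0654 in the wild type. Each of these differences was many times the SD between libraries, which rests on n = 2 each and may be technical. In percentage points, the difference of TCP1 was the smallest of the 4. Shares are parts of a whole, and those of CCT6 and CCT5 were larger in the mutant although both mRNAs fell.

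**Figure D3:**
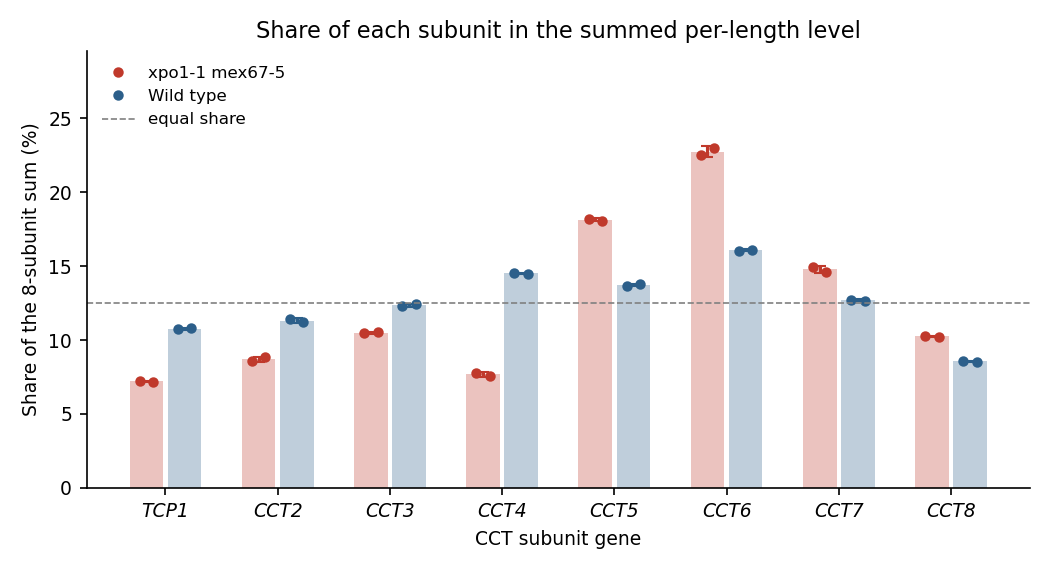
Share of each subunit in the summed per-length level of the 8, in percent, with the mutant (red) left of the wild type (blue), bars as means, error bars as SD, points as the 2 libraries and the equal share of 12.5% dashed. Shares run from 7.21% to 22.8% in the mutant and from 8.57% to 16.1% in the wild type.

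In the assembled ring the known order of neighbours is TCP1, CCT3, CCT6, CCT8, CCT7, CCT5, CCT2, CCT4 and back to TCP1. The 4 subunits whose mRNA fell least, CCT6, CCT8, CCT7 and CCT5, are neighbours in that order, as are the 4 whose mRNA fell most, CCT2, CCT4, TCP1 and CCT3. This grouping was noticed after the values were seen and was not tested. By chromosome, TCP1 and CCT4 on chromosome IV fell further than the mean of the 8 and CCT6 less. On chromosome X, CCT3 fell further and CCT5, CCT7 and CCT8 less. CCT2, on chromosome IX, fell further. A link with chromosome was not tested.

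The genes beside the members changed in both directions. No member overlaps another gene of the RefSeq annotation, and the nearest lay 136 to 1034 bases away. ARP3, whose 3′ end lies 206 bases beyond that of CCT5 on the other strand, fell too (log2 -1.06), as did GCD6 before TCP1 (-0.84). The largest falls were those of NOP9 beside CCT8 (-2.92) and RPA12 before CCT5 (-2.14). SND1 before CCT6 (1.13) and TPH3 before CCT3 (1.67, the largest rise) rose. So did GZF3 (1.28) and MDV1 (0.67) beside CCT7, YJL007C beside CCT8 (1.00) and SSL2 beside CCT2 (0.89). Smaller rises were those of SLY1 beside CCT6 (0.49), CRD1 beside CCT4 (0.36) and UPC2 beside TCP1 (0.34). The remaining neighbours fell: YDL144C beside CCT4 (-1.40), MAD3 beside CCT3 (-0.90) and AXL2 beside CCT2 (-0.27). The library kit does not mark strand, so reads running past a gene's end into such a neighbour cannot be told from its own. The tables also count 5 features with adjoining systematic numbers but no RefSeq position (YIL142C-A, YIL141W, YJL015C, YDR187C and YJL009W) which held at most 8.87% as many reads as the subunit beside them. YIL141W, numbered next to CCT2, had 546 and 461 reads in the mutant, against 156 and 141 in the wild type. YJL015C, next to CCT3, had 388 and 329 against 47 and 40. YIL142C-A and YDR187C also had more reads in the mutant, while YJL009W had fewer (203 and 146 against 231 and 225). If any of the 5 overlaps a subunit, the sources used here do not say how reads of the overlap were assigned. The part of such an overlap in the per-length levels and in the changes was not tested.

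The mRNAs of prefoldin, which delivers substrates to CCT, were lower as well. All 6 prefoldin genes fell, with a median log2 change of -1.83, where 46.3% of all genes tested were called lower. PAC10 fell most, at 16.98 and 18.5 CPM in the mutant, against 126 and 129.9 in the wild type (log2 -2.85, SE 0.05), and GIM4 next (-1.94). PFD1 fell least (-0.68, SE 0.05). PLP2, an essential gene for a phosducin-like cofactor of CCT, fell to 22.0 and 21.6 CPM in the mutant, against a mean of 102 in the wild type (log2 -2.22, SE 0.04).

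Genes for CCT clients went in both directions, with 9 of 12 lower, 3 higher and a median log2 change of -0.74. Of all genes tested, 46.3% were called lower and 46.8% higher. Actin, ACT1, stood at 918 and 945 CPM in the mutant, against 1960 and 1963 in the wild type (log2 -1.07, SE 0.04). Beta-tubulin, TUB2, stood at 265 and 266 CPM in the mutant, against 784 and 796 in the wild type (log2 -1.57, SE 0.04). The major alpha-tubulin gene TUB1 fell about as far (-1.52), while the minor one, TUB3, was close to the wild type (-0.14, SE 0.04). The 3 that rose were CDC55, a phosphatase subunit with WD40 repeats (2.26-fold), CDC20, an activator of the anaphase-promoting complex (1.64-fold), and ARP2, an actin-related protein (1.25-fold). Protein levels were not measured.

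Among other chaperones, most genes of those that act at the ribosome fell and those of the cytosolic heat shock proteins rose. Of 7 ribosome-associated chaperone genes, 6 fell and BTT1 rose (log2 0.53), with a median of -2.74. SSB2, a ribosome-bound Hsp70, stood at 168 and 165 CPM in the mutant, against 1390 and 1389 in the wild type (log2 -3.06, SE 0.04), and its near-identical copy SSB1 at -2.82. Reads shared by that pair may be split between them, and the same holds for any closely related genes among the heat shock proteins. All 15 genes of the cytosolic Hsp70, Hsp90, Hsp104 and small heat shock protein system rose, with a median of 3.54. HSP42 rose most (log2 6.50), followed by SSA4 (5.97), while the J-domain gene YDJ1 rose least (1.61). Of the mitochondrial chaperonin, HSP60 did not pass the test: it stood at 1275 and 1312 CPM in the mutant, against 1237 and 1352 in the wild type (log2 0.00, SE 0.04, edgeR adjusted p = 0.99), and its partner HSP10 fell slightly (-0.33, SE 0.04). These lists are described by counts and medians only, and no test compared them with CCT. Their counts stand beside 46.3% of all genes tested called lower and 46.8% called higher.

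**Figure D4:**
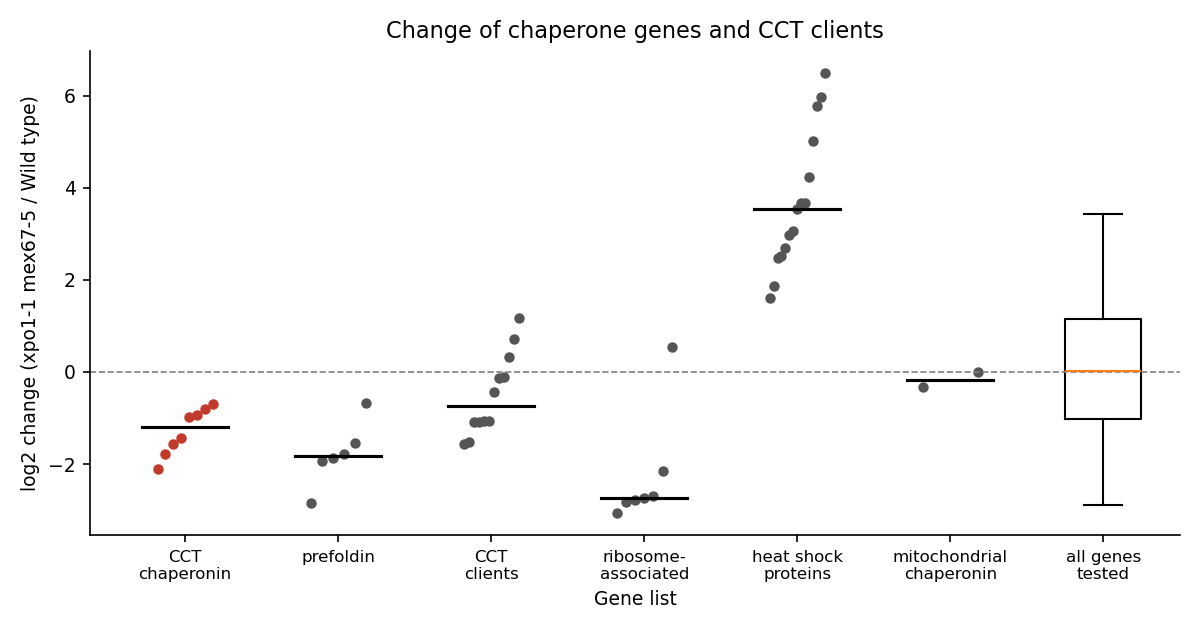
Log2 change of each gene in the mutant over the wild type for the 8 subunits (red) and 5 other lists (grey), with list medians as bars, and all genes tested as a box (quartiles, whiskers from the 5th to the 95th percentile). The subunits span -2.11 to -0.69, the prefoldin genes -2.85 to -0.68, and the heat shock protein system 1.61 to 6.50.

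The genes whose pattern over the 4 libraries was most like the mean of the 8 subunits were PTC3, YPT6, RPP1, GCN3 and ELP4. Likeness was the Euclidean distance between deviations of log2 CPM from a gene's own mean, which ranged from 0.00639 for PTC3 to 0.0195 for ELP4. PTC3, a protein phosphatase, stood at 107 and 109 CPM in the mutant, against 266 and 263 in the wild type (log2 -1.29, SE 0.03). With 2 groups of 2 libraries this distance mostly picks genes with the same change. By the same measure the subunits themselves lay 0.142 (CCT3) to 0.828 (CCT4) from their own mean.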

How the data were processed

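Each library has a file of whole-number read counts per gene and another per intron, which the authors deposited unscaled. Per the submitters' processing notes, the tools were bcl2fastq (2.17), STAR (2.5), featureCounts and DESeq2 (1.8.2), with build R64; their roles are not stated. The sources used here do not say how strand, multiply mapped reads or overlapping genes were treated. Of 7126 features, 6048 matched a RefSeq locus tag. The count of unused sample columns was 0.

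The gene counts were fitted with edgeR 4.0.16 under R 4.3.3, after filterByExpr and TMM scaling (factors between 0.994 and 1.01). Robust quasi-likelihood fits used group alone and were tested two-sided over 6563 genes, with Benjamini-Hochberg adjustment at 0.05. Library sizes after scaling are the base of CPM. Chi-square per degree of freedom between replicates was 7.15 in the mutant and 10.6 in the wild type, above sampling noise. For the 8 subunits, with all other gene reads pooled as a further class, it was 1.60 in the mutant and 1.17 in the wild type, where 1 is counting error alone. Each library was kept as a sample. Coding lengths, promoters and translated sequences came from RefSeq R64, aligned with Biopython 1.88 (BLOSUM62, gap penalties 11 and 1). Figures used matplotlib 3.10.9.

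The members, lists and the rule for named genes were chosen with earlier results of these data known. Named were the 8 subunits, both mutated genes, the extremes and exceptions of each list, and the 5 genes of nearest pattern. A gene of these lists is not reported here. RPN4, the heptamer and the description of neighbouring genes were chosen after their values or sequences were seen. Alternatives were DESeq2 1.42.0, other scalings, no filter, a replicate block, other centres and lengths, and leaving out each library.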

Additional observations from a re-analysis of the deposited data

How the results depend on the processing

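All 8 subunits were called lower, 4 were called below and 4 above the CCT mean, and each kept its sign, under all 11 alternatives to the change and all 9 to the relative change. CCT3, nearest the CCT mean, had the largest adjusted p of these (0.014). The median log2 change of the subunits, -1.202, became -1.22 without the count filter, -1.10 with upper-quartile scaling and, chosen after seeing the data, -1.25 when ribosomal protein genes were left out of the scaling. The log2 ratio of the summed level, -1.19, became -1.09 and -1.23 in the last 2. Upper-quartile scaling also put the median over all genes at 0.12 and not 0.01. Leaving out ribosomal protein genes put it at -0.03. With a replicate block, 3034 genes were lower and 3075 higher, against 3039 and 3070, and 8 subunits were lower. The labels do not say that equal replicate numbers pair libraries, and deviations of equal numbers correlated at -0.03. No member overlaps a gene of the RefSeq annotation, so the alternative with overlap-free length equals the coding length and tests nothing; the 5 counted features without a RefSeq position could not be placed. Where 1 library of a group was left out, the lone library was assumed to vary like the others. With 4466 to 21904 reads per subunit and library, depth did not limit the changes given.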
